A study of Rattus norvegicus with 8 samples.

Results

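Gsdmd and Casp1 were each represented by 1 transcript, ENSRNOT00000075917.1 for Gsdmd and ENSRNOT00000009993.6 for Casp1, which makes 2 of the 41078 transcripts listed for every library. The deposited values carry Ensembl transcript identifiers without gene names. The 2 transcripts were chosen by their counts in the CCI rats, because these match the points that the study plotted by gene name for its CCI rats, and the names rest on that match. The reference table used here lists 47357 genes of assembly GRCr8 and gives an Ensembl identifier for 0 of them, so no match was possible. The names were therefore not checked in a second way, and further transcripts of either gene were left unassigned. Because counts of CCI rats gave the names, the difference between CCI and Sham rats is described here with its error and without a p-value for either transcript, and counts of calls are given only as a description beside the share of all tested transcripts called.

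The libraries came from lumbar spinal cord (SC, L4-L6) of adult male Sprague-Dawley rats on postoperative day 10, 1 library per rat. In the 4 rats with chronic constriction injury (CCI), a model of neuropathic pain, 4 loose ligatures were tied around the left sciatic nerve, and in the 4 Sham rats that nerve was exposed and left untied. The labels do not give the side of the cord that was sampled. The library totals lay between 82926469 and 99820143 counts, and the CCI libraries were on average smaller, with a mean total of 87717482 against 93538690 in Sham rats. All 28 pairs of libraries differed by at least 51.5 in chi-square per transcript, far beyond counting noise, so they were treated as 8 separate samples.

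Pyroptosis is an inflammatory form of regulated cell death. Inflammasomes such as the one built on NLRP3 recruit and activate caspase-1, the protease encoded by Casp1, which matures the cytokines interleukin-1β and interleukin-18 and cuts gasdermin D, the product of Gsdmd. The released amino-terminal part of gasdermin D oligomerises into pores in the plasma membrane, through which the cytokines leave the cell. Both proteins are therefore controlled by cleavage, which RNA-seq does not measure, and in the spinal cord microglia are among the cells in which they are studied.

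Both transcripts were present at moderate levels in every rat and were higher on average after CCI, Gsdmd by 24.2% and Casp1 by 30.3% in CPM (the count divided by the total of its library, times 1000000). Relative to the spread within groups the Gsdmd difference was the clearer one, since it equalled 3.06 times the pooled within-group SD against 1.79 times for Casp1. In bulk tissue, more cells of a type and more RNA per cell cannot be told apart.

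The Gsdmd transcript had counts of 533, 609, 579 and 589 in Sham-1 to Sham-4 and of 729, 667, 576 and 723 in CCI-1 to CCI-4. In these unscaled counts 3 CCI rats lay above every Sham rat, while CCI-3 lay below 3 of the 4 Sham rats. Divided by the library totals, the Sham rats had 6.07, 6.62, 5.80 and 6.24 CPM. The CCI rats had 8.21, 8.04, 6.87 and 7.59 CPM. On this scale the groups did not overlap, and the CCI rats were the higher ones, with the smallest gap between CCI-3 and Sham-2. Among the 23110 transcripts with enough counts to be tested, 4.50% had all CCI rats above all Sham rats in CPM. The groups touched again when the library sizes were rescaled by edgeR's TMM method, with CCI-3 at 6.75 and Sham-2 at 6.77 TMM-scaled CPM, and 15 of the 16 pairs of a CCI and a Sham rat had the higher value in the CCI rat. The separation of Gsdmd between the groups therefore held by library total and neither by TMM nor by DESeq2's size factors.

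The Sham mean of Gsdmd was 6.18 ± 0.341 CPM (SD, n = 4) and its CCI mean 7.68 ± 0.601 CPM (SD, n = 4). In edgeR's quasi-likelihood fit over all tested transcripts with TMM scaling, the log2 fold change of Gsdmd between CCI and Sham rats was 0.29 (standard error 0.09). Its 95% interval ran from 0.08 to 0.51 on the log2 scale, a fold between 1.06 and 1.42.

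The Casp1 transcript had counts of 267, 280, 272 and 223 in Sham-1 to Sham-4 and of 355, 248, 356 and 316 in CCI-1 to CCI-4. In CPM the Sham rats had 3.04, 3.04, 2.72 and 2.36. The CCI rats had 4.00, 2.99, 4.24 and 3.32 CPM. CCI-1 and CCI-3 stood well above the Sham rats, CCI-4 lay just above them, and CCI-2 lay below Sham-1 and Sham-2, so that the groups overlapped. In 14 of the 16 pairs of a CCI and a Sham rat the CCI rat had the higher Casp1 value, by library total as well as by TMM.

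The Sham mean of Casp1 was 2.79 ± 0.323 CPM (SD, n = 4) and its CCI mean 3.64 ± 0.583 CPM (SD, n = 4). The log2 fold change of Casp1 in the same edgeR fit was 0.36 (standard error 0.16), larger than that of Gsdmd with a wider error. The 95% interval ran from -0.0028 to 0.73 on the log2 scale, a fold of up to 1.66.

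**Figure D1:**
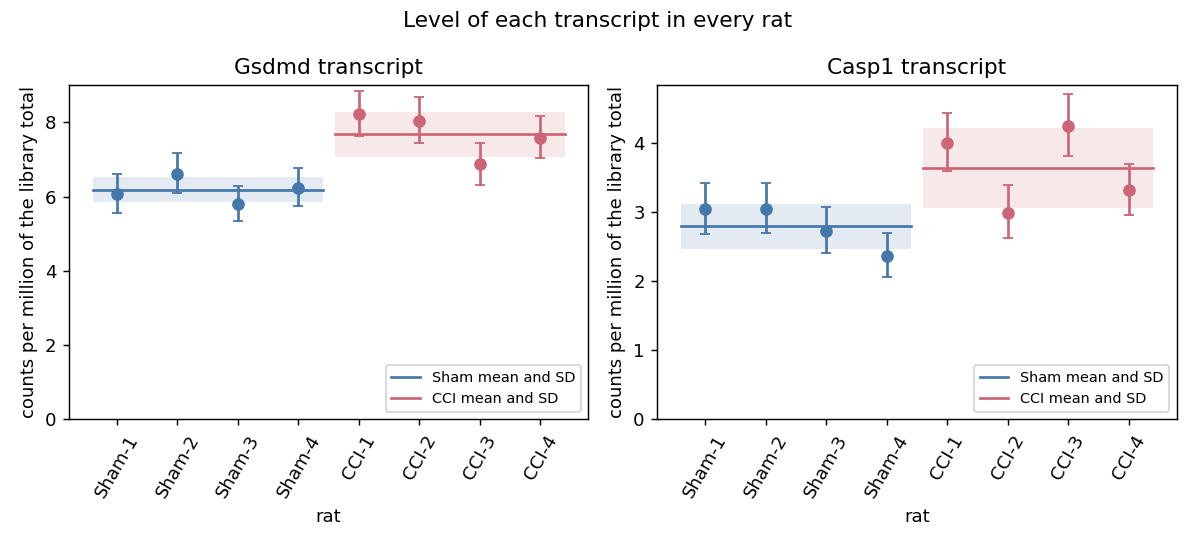
Level of the Gsdmd transcript (left) and the Casp1 transcript (right) in each of the 8 rats, in CPM. Points are rats with exact 95% binomial (Clopper-Pearson) intervals for counting error, lines are group means and bands are 1 SD (n = 4), and the CCI points of Gsdmd (6.87 to 8.21) lie above the Sham points (5.80 to 6.62), whereas for Casp1 CCI-2 (2.99) lies among the Sham rats (2.36 to 3.04).

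The spread between rats of 1 group was set against counting error. For Gsdmd the between-rat coefficient of variation was 5.52% in Sham rats and 7.83% in CCI rats, 1.33 and 2.02 times what Poisson counting alone gives at these counts. Casp1 varied more, with coefficients of 11.6% in Sham rats and 16.0% in CCI rats, or 1.86 and 2.83 times the Poisson value. For a single rat, the exact Clopper-Pearson interval (95%, counting error only) of Gsdmd was 6.32 to 7.45 CPM in CCI-3 and 6.10 to 7.16 CPM in Sham-2, so the lowest CCI rat and the highest Sham rat were not separated at this depth. For Casp1 the interval was 2.63 to 3.39 CPM in CCI-2 and 3.81 to 4.71 CPM in CCI-3, so these 2 CCI rats differed from each other beyond counting error.

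The baseline level of each transcript was placed by its rank within its own library. Counts were not divided by transcript length, since no lengths of these transcripts were at hand, so a rank reflects length as well as abundance. In Sham rats 54.2% ± 0.713 (SD, n = 4) of the transcripts above 0 had a lower count than Gsdmd, and 45.0% ± 1.01 (SD, n = 4) had a lower count than Casp1. Between 27223 and 27826 transcripts per rat were above 0, and both genes thus sat near the middle of the detected transcripts in Sham rats. After CCI the percentile was 56.4 ± 1.08 (SD, n = 4) for Gsdmd and 47.4 ± 1.56 (SD, n = 4) for Casp1, about 2 percentile points higher for each. The ranks of Gsdmd overlapped between the groups, with CCI-3 at 54.87 and Sham-2 at 54.99. Casp1 ranks also overlapped, with CCI-2 at 45.7 against 45.8 in both Sham-1 and Sham-2.

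**Figure D2:**
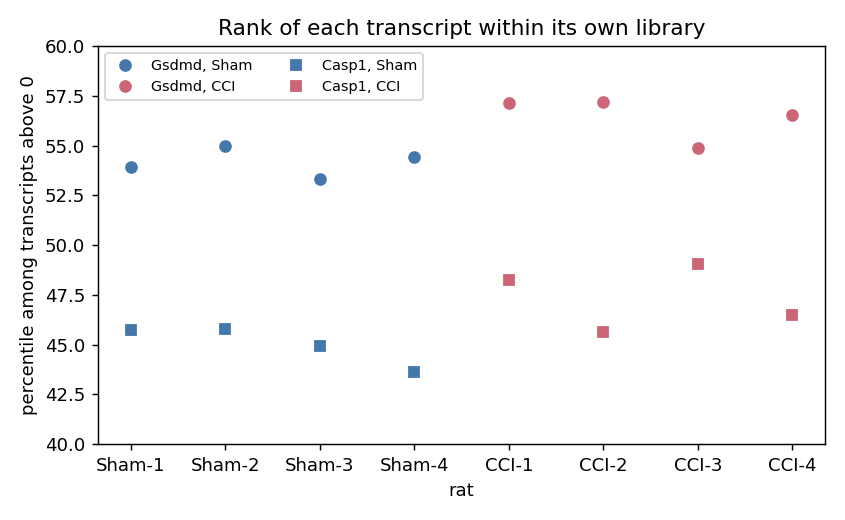
Percentage of the transcripts above 0 in each library that had a lower count than Gsdmd (circles) or Casp1 (squares), for the 4 Sham rats (blue) and the 4 CCI rats (red). The axis does not start at 0, and in all 8 rats Gsdmd (53.3 to 57.2) ranks above Casp1 (43.6 to 49.0).

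Set against the rest of the transcripts, both changes were modest in size. A log2 fold change at least as high as that of Gsdmd was fitted for 13.8% of the 23110 tested transcripts, and one at least as high as that of Casp1 for 11.5%. With Benjamini-Hochberg adjustment over all tested transcripts, 0 of the 2 were among those with an adjusted p under 0.05 in edgeR, against a background of 0.385% called. The same count of 0 was obtained with DESeq2 (2.04% of tested transcripts called), limma-trend (0.407%) and limma-voom (0.247%). At the study's own criteria, a fold change past 1.5 and an unadjusted p under 0.05, the count was also 0 of 2 in edgeR, where 2.62% of tested transcripts were called. At an unadjusted p under 0.05 alone the count was 1 of 2, Gsdmd, in edgeR (7.89% called), DESeq2 (9.0%), limma-trend (8.31%) and limma-voom (8.51%). It was 2 of 2 in edgeR by library totals alone (7.80% called), with at least 10 counts in every rat (8.76%) and without CCI-2 (7.18%). It was 1 of 2, Gsdmd, with upper-quartile scaling (1817 of 23110 called) and with a replicate block (1577 of 23110). Without a filter beyond a total above 0 it was also 1 of 2 (2119 of 31967). Each of the 8 rats was also left out in turn. At an unadjusted p under 0.05, Gsdmd was called in 8 of these fits and Casp1 in 1, the fit without CCI-2. In these fits between 1512 of 23574 tested transcripts (without Sham-1) and 1986 of 23585 (without CCI-4) were called. Neither transcript was called in any of them at an adjusted p under 0.05 or at the study's criteria. Since the CCI values named the transcripts, nothing is read from these shares.

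The direction was the same in every fit that left out 1 rat. Over the 8 fits that each left out a rat, the log2 fold change of Gsdmd ran from 0.25 without CCI-1 to 0.35 without CCI-3. For Casp1 it ran from 0.28 without Sham-4 to 0.45 without CCI-2. CCI-2 was thus the rat that most reduced the Casp1 difference, and CCI-3 the one that most reduced the Gsdmd difference.

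**Figure D3:**
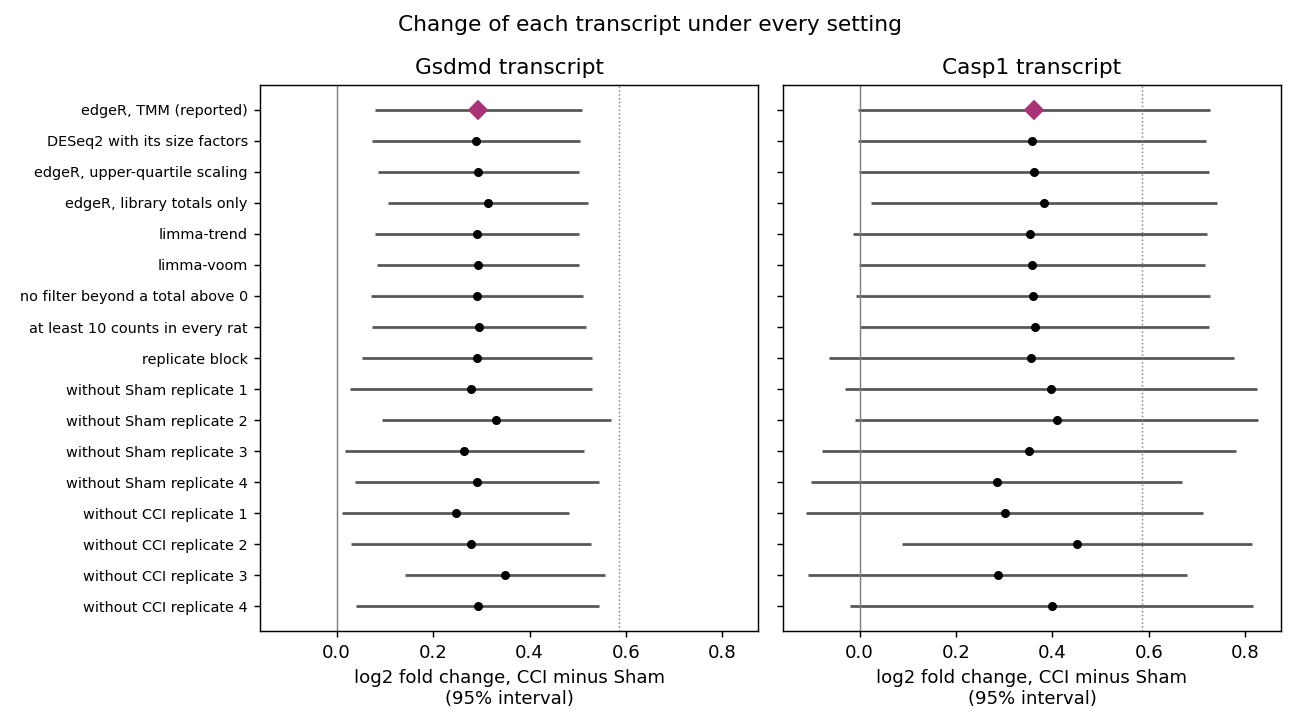
Log2 fold change between CCI and Sham rats for Gsdmd (left) and Casp1 (right) with its 95% interval, in the reported fit (diamond), under the other methods, scalings and filters, and with each rat left out. The solid line marks no difference and the dotted line a fold of 1.5. Every estimate lies above 0, between 0.25 and 0.35 for Gsdmd and between 0.28 and 0.45 for Casp1.

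The relation between the protease and its substrate was examined rat by rat. Over the 8 rats, Pearson's r between Gsdmd and Casp1 in CPM was 0.521 (two-sided exact permutation p = 0.192, the same after Benjamini-Hochberg adjustment over r and rho). Spearman's rho was 0.571 (exact permutation p = 0.151, adjusted p = 0.192). A positive relation was thus not shown with 8 rats. Without CCI-3 and CCI-1, the rats farthest from the median of Casp1, r was 0.539 over the other 6 rats (exact permutation p = 0.251). Without CCI-3 alone it was 0.720 (exact permutation p = 0.0474), and without any other single rat the exact permutation p of r was between 0.0891 and 0.486. For rho the exact permutation p was under 0.05 without CCI-2 (rho = 0.786, p = 0.0480) and not without CCI-3 (rho = 0.643, p = 0.139), so the rat whose removal passed 0.05 differed between the 2 measures.

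Both transcripts were on average higher in CCI rats, so this r contains the difference between the groups. With the mean of the rat's group subtracted from each value, r was -0.307 (exact permutation within groups, p = 0.595) and rho was -0.119 (p = 0.825 by the same exact test). The 2 rats that parted most were both in the CCI group. CCI-3 had the highest Casp1 of all rats, 0.607 CPM above the CCI mean, and the lowest Gsdmd of its group, at -0.810 CPM from it. CCI-2 was the reverse, with Casp1 at -0.647 CPM and Gsdmd at 0.366 CPM from the group mean. CCI-1, by contrast, was above the CCI mean in both. No group had enough rats for a correlation of its own.

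**Figure D4:**
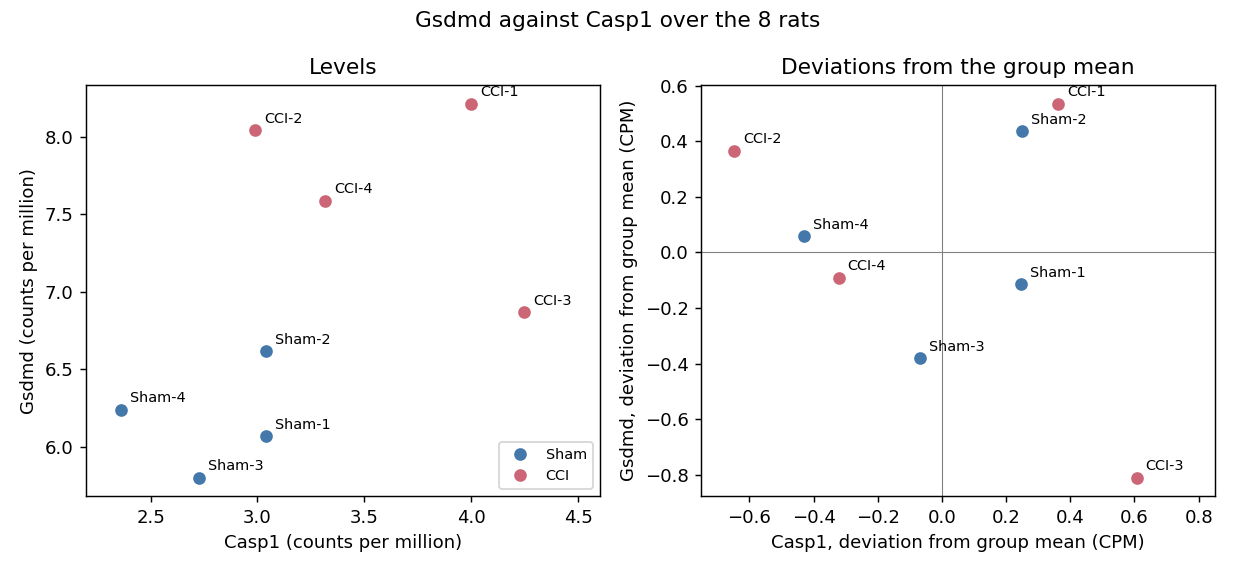
Gsdmd against Casp1 in the 4 Sham (blue) and 4 CCI (red) rats, in CPM (left, where both axes start above 0) and after subtracting each group's mean (right). On the left the CCI rats lie above the Sham rats on the Gsdmd axis (r = 0.521 over 8 rats), and on the right CCI-3 and CCI-2 lie at opposite corners (r = -0.307).

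The ratio of the 2 counts within a library needs no scaling for depth, and its change between groups does not depend on transcript length. Sham rats had 1.996, 2.18, 2.13 and 2.64 Gsdmd counts per Casp1 count, and CCI rats had 2.05, 2.69, 1.62 and 2.29. The ranges lay across each other, with CCI-3 lowest and CCI-2 highest of all 8 rats. The Sham mean was 2.24 ± 0.281 (SD, n = 4) and the CCI mean 2.16 ± 0.448 (SD, n = 4). On the log2 scale the ratio differed by -0.06 between CCI and Sham rats, with a 95% interval from -0.50 to 0.37. The differences of the 2 transcripts were therefore not separable in size, and an interval this wide does not show that they were equal.

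Across the 8 rats, the transcript whose log2 CPM followed Gsdmd most closely was ENSRNOT00000020516.7, with a Pearson's r of 0.976 among 23109 transcripts compared. Its counts averaged 34.0 ± 12.4 (SD, n = 4) among Sham rats and 108.5 ± 57.7 (SD, n = 4) among CCI rats. For Casp1 it was ENSRNOT00000005715.6, with an r of 0.977 and mean counts of 2051 ± 117 (SD, n = 4) among Sham rats and 2097 ± 142 (SD, n = 4) among CCI rats. Each is the highest of 23109 values over 8 rats and includes the difference between the groups, so it is given as a description only. On the same scale the r between the members was 0.540, which placed Casp1 2472nd in the order for Gsdmd and Gsdmd 2565th in the order for Casp1. About 89% of transcripts had a lower r with each member than the other member had. This r between the members also includes the difference between the groups. On deviations from group means in CPM their r was -0.307.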

How the data were processed

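RNA was taken from spinal cord of 4 Sham and 4 CCI rats. The authors deposited a whole-number count per Ensembl transcript for each rat, not scaled for library size. Whether these counts were rounded from estimates, the aligner, the counting program and the annotation release are not given in the sources used here. The submitters' processing notes list DESeq2 1.16.1 and build rn4. Transcripts of 1 gene can share reads, so a count can also move with how reads were divided.

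CPM was the count divided by the library total (times 1000000). CCI was compared with Sham in edgeR 4.0.16 (R 4.3.3) with TMM scaling, filterByExpr, robust quasi-likelihood fits and the group as the only term, fitted on all tested transcripts. On simulated counts the fitting code had to return a median estimate near the true log2 fold change, for changes larger than those of Gsdmd and Casp1. No limit was set there for interval coverage or false calls. Standard errors were derived from the F statistic. DESeq2 1.42.0, limma 3.58.1, other scalings and filters, a replicate block and leaving out each rat were alternatives. Log2 CPM used a prior count of 2. Correlations used exact permutation tests over every ordering, computed with numpy 2.4.6. Ranks and the Benjamini-Hochberg adjustment of these tests came from scipy 1.17.1.

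The members and lists were chosen with earlier results of these data known. Named were the 2 members and, for each, the transcript with the highest r. Lists of pathway genes and cell type markers gave no result, because the identifiers could not be paired with names. Nothing in the labels says which rats shared a surgery or library batch.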

Additional observations from a re-analysis of the deposited data

How the results depend on the processing

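The log2 fold changes of Gsdmd (0.25 to 0.35) and Casp1 (0.28 to 0.45) kept their direction under all 16 alternatives each. Scaling by library totals alone gave 0.31 and 0.38. The ratio of Gsdmd to Casp1 moved by less than the spread between rats, between -0.18 and 0.07 with each rat left out. The correlation of the 2 transcripts reversed to -0.307 on deviations from group means. With 1 rat left out, r ran from 0.332 without CCI-1 to 0.720 without CCI-3. Without CCI-3 the exact permutation p, unadjusted, was 0.0474 for r and 0.139 for rho. On the counts as deposited r was 0.400 (exact permutation p = 0.324). The cause was not tested.

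The percentile in Sham rats depends on the transcripts it is taken over. For Gsdmd it was 69.4 over all listed transcripts, 45.2 over those with at least 10 counts and 45.6 over those that passed the filter. For Casp1 it was 63.3, 34.3 and 34.8.

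Over all tested transcripts, edgeR's 89 adjusted calls compared with 472 in DESeq2, 57 in limma-voom and 2 with the replicate block, and with each rat left out they numbered 3 (CCI-1 removed) to 63 (CCI-4 removed). Transcripts past the study's criteria numbered 605 in edgeR and 528 to 895 under the alternatives. The study reported a larger number of differentially expressed genes by RNA-seq, and the reason for the difference was not tested.

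No pairing of the rats by replicate number was found. Deviations correlated at 0.0148 on average over 4 same-numbered pairs, none above 0.1, and at -0.0049 over the 12 other pairs. A pairing that moved few transcripts would not show in these averages, so it is not excluded. With the replicate block the log2 fold change was 0.29 for Gsdmd and 0.36 for Casp1, and the log2 ratio was -0.06.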
